A study of Mus musculus with 3 samples.

Results

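The protein components of the cytosolic ribosome were followed across 3 mouse muscle samples. Members were taken by the gene name printed on the array, an Rpl or Rps symbol with a number, a P-stalk number or the letter a, which leaves out the ribosomal S6 kinases. The rule gave 80 genes with 134 probes, out of 27666 genes and 41169 probes. Of these, 48 encode large-subunit and 32 small-subunit proteins, and 4 of the 80 are paralogs of a core protein (Rpl3l, Rpl7l1, Rpl22l1 and Rps27l). Male mice aged 6 weeks formed 3 groups: no swimming with normal food, swimming with normal food, and swimming with food holding 0.5% Chlorella powder, a green alga. The experiment ran for 14 days, and the series title names an immune response under swimming stress as its subject. Muscle RNA of 10 mice was pooled for each group and read on 1 single-colour array per group, so each group is 1 pool without replicates. Strain and muscle were not given in the sources used here. A nonswimming group fed Chlorella was not analysed here, so diet was compared among swimming mice only.

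Ribosomal proteins, with ribosomal RNA, form the large subunit, which joins amino acids, and the small subunit, which reads the message. Their messages are among the most abundant in most cells and usually carry a run of pyrimidines (C and T) at the very start, the 5′ terminal oligopyrimidine tract, through which mTORC1 signalling and the RNA-binding protein Larp1 control their translation. In muscle, ribosome number is one determinant of protein synthesis capacity, and a paralog of Rpl3, Rpl3l, is known for its restriction to heart and skeletal muscle.

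To show how far members share that start of the message, 30 bases around the annotated transcription start (15 before it and 15 from it on) are printed for members the results turn on, with Rpl7a for the longest run, from the RefSeq promoter table (GRCm38.p6), 5′ to 3′ on the gene's strand. Capitals mark the longest C/T run that reaches within 10 bases of the start. Where a gene had more than 1 listed start, the one with the longest run is shown.

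Rpl7a, chr2:26910792-26910821, plus strand: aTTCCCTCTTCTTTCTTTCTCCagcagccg
Rpl39, chrX:37085208-37085237, minus strand: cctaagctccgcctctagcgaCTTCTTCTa
Rpl22, chr4:152324421-152324450, plus strand: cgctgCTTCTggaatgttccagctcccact
Rpl22l1, chr3:28805493-28805522, plus strand: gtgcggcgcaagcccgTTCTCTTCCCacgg
Rps27, chr3:90213634-90213663, minus strand: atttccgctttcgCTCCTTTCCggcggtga
Rps27l, chr9:66946071-66946100, plus strand: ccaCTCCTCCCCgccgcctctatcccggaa
Rpl3l, chr17:24727811-24727840, plus strand: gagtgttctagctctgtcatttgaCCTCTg
Rpl4, chr9:64173372-64173401, plus strand: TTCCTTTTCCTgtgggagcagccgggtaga
Rps6, chr4:86857353-86857382, minus strand: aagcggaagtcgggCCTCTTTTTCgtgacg
Rpl41, chr10:128549154-128549183, minus strand: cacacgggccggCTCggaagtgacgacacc
Rps15, chr10:80292416-80292445, plus strand: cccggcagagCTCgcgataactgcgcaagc

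The run was 21 bases in Rpl7a, 5 bases in both Rpl3l and Rpl22 and 3 bases in both Rpl41 and Rps15. The Rpl4 run of 14 bases begins outside the printed window. Annotated starts were not checked here against the true first base of the messages. A short run therefore does not show that a message lacks the tract. The table held 60 of the 80 genes; the entries for Rpl3, Rpl30 and Rps14 are among the 20 missing ones. The median run was 7 bases in the 60 members and 4 bases in 17491 protein-coding genes. A run of at least 8 bases was present in 28 members (46.7%) and in 15.8% of protein-coding genes. In the 300-base window (250 before the start, 50 after it), the letters CCGGAAG, the core recognised by ETS factors, occurred on either strand in 24 members (40%) and in 12.9% of genes. The letters AAGATGGC, the core recognised by YY1, occurred in 6 members (10%) against 3.57%, and TATAAA in 7 (11.7%) against 14.8%. These 3 motifs were chosen after the data were seen. The first 2 can share the letters AAG at one place, and a match is a description of sequence only.

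Levels are given as relative signals, the processed signal of a gene's brightest probe divided by its array's 75th percentile, and ratios as log2 differences of these values. The error printed with a ratio is the scanner's own error of its 2 spots, 0.20 for every member named below; the spread of a ratio between repeated spots of one probe was 0.09. Neither covers differences between mice, dissections or labellings, and no test could be made. All 80 genes were well above background on all 3 arrays, with processed signals of 159.7 to 102234, and 77 exceeded 1000 on every array; no member spot was saturated. Skeletal muscle markers were all present, 12 of 12 well above background on each array, with summed relative signals of 5660 without swimming, 4840 with swimming and 6220 with swimming and Chlorella.

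In swimming mice on normal food, most ribosomal protein genes stood slightly above their nonswimming level. The median log2 ratio was 0.20 (1.15-fold) against -0.04 over all 15663 genes, and 73 of the 80 lay above the median of all genes. Over the other scalings the members' median ran from 0.05 with median centring, where that of all genes was -0.19, to 0.28 with cyclic loess. A ratio above 0 was found for 69 of the 80 (86.2%), where 44.9% of all genes had one. The shift was small: 11 members were higher by more than the 95% limit of the scanner error, 1.96 times that error, where 12.3% of all genes were, and none was lower, where 8.7% were. At least 1.5-fold higher were 3 members (Rpl30, Rpl39 and Rpl22l1), where 9.35% of all genes were, and none was 1.5-fold lower, where 4.4% were. No member reached 2-fold, where 5.14% of all genes were at least 2-fold higher and 1.07% lower. The ratios were closely spaced, with a standard deviation over the 80 genes of 0.22 against 0.58 over all genes and 0.36 over the 831 bright genes described next, and the medians were 0.19 for the large and 0.23 for the small subunit. Among 831 genes at least as bright as the members' lower quartile, a comparison chosen after the data were seen, the median was -0.07, and 27 were at least 1.5-fold higher and 21 lower. Fewer cells of a type and less RNA per cell cannot be told apart in such pooled tissue.

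**Figure D1:**
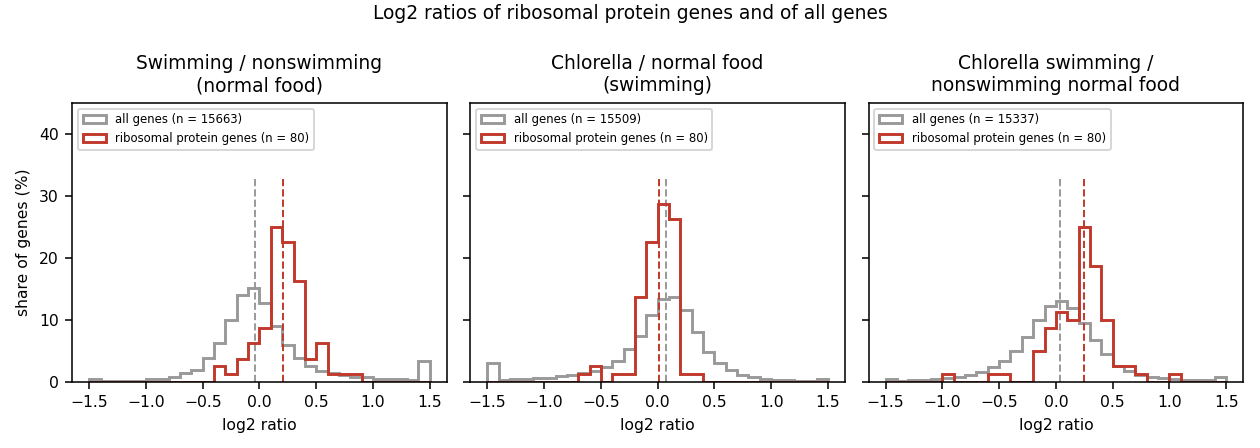
Share of genes (%) by log2 ratio in bins of 0.1 for the 3 comparisons, ribosomal protein genes in red and all genes well above background in grey; dashed lines are medians and values beyond 1.5 are drawn in the outermost bins. The red distribution sits right of the grey one in both comparisons with the nonswimming array (medians 0.20 and 0.25) and near it in the diet comparison (0.01).

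Rpl30, a large-subunit protein whose yeast counterpart regulates its own message, had relative signals of 17.7 without swimming, 32.0 with swimming and 36.0 with swimming and Chlorella. Its swimming ratio of 0.85 ± 0.20 (1.8-fold) was the highest of the members. Rpl39, a very small protein of the peptide exit tunnel, had relative signals of 32.9, 57.1 and 52.6 in the same order, and a ratio of 0.80 ± 0.20. Both were low on the nonswimming array and higher on both swimming arrays. Rpl41, which encodes one of the smallest known proteins, read 93.5, 140 and 137, with a ratio of 0.58 ± 0.20. Rps14, a protein of the small subunit's platform, read 82.9, 122 and 136, with a ratio of 0.56 ± 0.20. These 4 genes kept a positive ratio in this comparison under every alternative processing that measured them.

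At the other end, Rpl4, a core large-subunit protein that lines the exit tunnel, had relative signals of 20.4, 15.6 and 10.6 and a swimming ratio of -0.38 ± 0.20. Rps15, near the decoding centre, read 12.5, 9.57 and 8.36, also with a ratio of -0.38 ± 0.20. Both were highest on the nonswimming array and lowest on the Chlorella array. Rps16, whose tail reaches toward the transfer RNA in the P site, read 170, 155 and 149, with a ratio of -0.14 ± 0.20, inside the scanner error. Rpsa, the small-subunit protein also known as the laminin receptor, read 19.8, 17.6 and 19.5, with a ratio of -0.17 ± 0.20 that became positive under 1 or more alternative settings (highest 0.10).

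**Figure D2:**
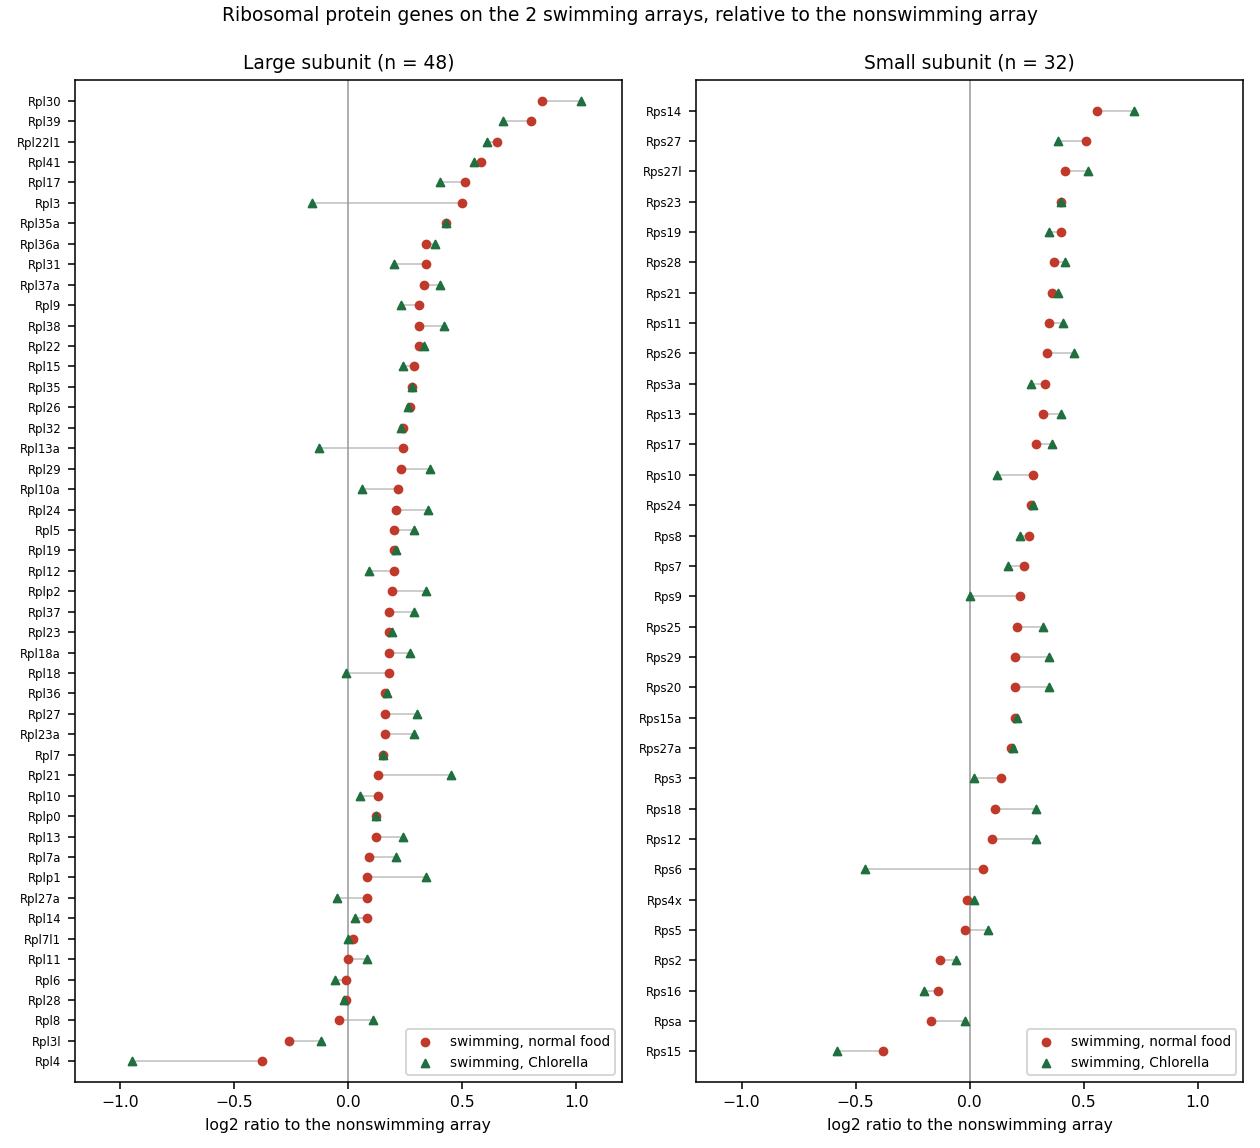
Log2 ratio to the nonswimming array of each of the 48 large-subunit and 32 small-subunit genes, circles for swimming on normal food and triangles for swimming with Chlorella, sorted by the first. Most pairs of symbols lie right of 0 and close together; Rpl3, Rpl4, Rpl13a and Rps6 have triangles far to the left of their circles.

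Genes read by several probes gave a second reading of their ratio. For 27 members, 2 or more probes had a signal of at least 50 and were well above background on all arrays. The median range between probes of a gene was 0.12 for swimming, 0.08 for the diet comparison and 0.08 for the Chlorella array against the nonswimming array. Probes of one gene differed in sign for 5, 9 and 5 genes in these comparisons. The widest gap was in Rpl22, an RNA-binding large-subunit protein, where the brightest probe gave 0.31 ± 0.20 and the other -0.27 ± 0.20 for swimming. The 40 genes with 1 probe, Rpl30, Rpl39, Rpl3, Rpl4 and Rps15 among them, have no such second reading. For 23 genes with probes ordered along the transcript, the 5′ probe minus the 3′ probe had a median of 0.02 for swimming, beside -0.02 over 2544 genes. For 35 of the 80, the brightest probe lists at least 2 transcripts or a predicted copy, so reads of near-identical copies may be mixed in.

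**Figure D3:**
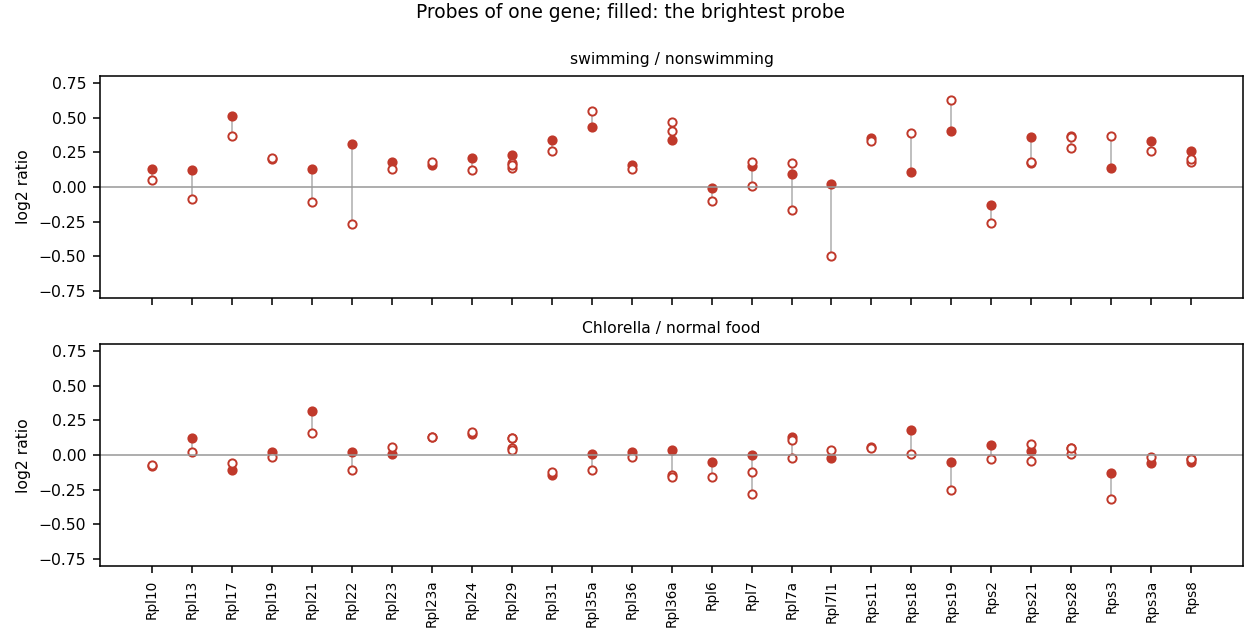
Log2 ratio of each probe for the 27 genes with several bright probes, filled symbols for the brightest probe, swimming against nonswimming above and Chlorella against normal food below. Probes of a gene mostly lie within 0.2 of each other, with Rpl22 and Rpl7l1 as the widest gaps in the upper panel.

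Markers of blood cell precursors, dividing cells and fat were also higher on the array of swimming mice on normal food. Summed over 12 neutrophil markers, the relative signal was 16.7 without swimming, 281 with swimming and 3.58 with swimming and Chlorella, and 2, 0 and 3 of them were not well above background. The 12 B cell markers summed to 1.10, 8.48 and 0.913 (4, 0 and 7 not well above background) and the 12 cell cycle markers to 2.18, 12.8 and 1.90 (2, 0 and 4). Both were high on the swimming array alone, as were the 11 erythroid markers, at 128, 444 and 130 (4, 0 and 7). The 12 adipocyte markers summed to 405, 847 and 513 and the 10 macrophage markers to 88.2, 122 and 48.6, all well above background. Lyz2 alone read 73.7, 109 and 39.9 of the macrophage sums. The median swimming ratio of the macrophage markers was -0.04, with 4 of 10 above 0. The 10 keratinocyte markers summed to 13.7, 7.50 and 6.05 (1, 2 and 4 not well above background). Most of these sums came from Sfn (4.52, 4.85 and 3.2) and Krt10 (4.1, 1.71 and 2.01). The 8 keratinocyte markers well above background on the nonswimming and swimming arrays had a median swimming ratio of -2.50, with 1 above 0. No marker was at 0, and the B cell receptor chain Cd79a was not well above background on the nonswimming and Chlorella arrays. On the Chlorella array the neutrophil, B cell and cell cycle sums were below those of the nonswimming array. The adipocyte sum was higher there and the erythroid sum about equal. Most of the erythroid sum came from Hbb-bt (70.8 without swimming, 86 with Chlorella) and Hba-a1 (53.5 and 42.4). The 4 erythroid markers well above background on both arrays had a median log2 ratio of -0.47, with 1 above 0. The ribosomal protein median against the nonswimming array, relative to all genes, was 0.21 on the Chlorella array and 0.24 on the swimming array. With quantile normalization it was 0.12 and 0.31, and against genes as bright as the members 0.10 and 0.27. The part of these cell types in the result was not tested.

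Among swimming mice, Chlorella in the food went with little difference in ribosomal protein messages. The median log2 ratio was 0.01 against 0.08 over all 15509 genes, and its sign depended on the scaling, at -0.14 with quantile normalization, -0.16 with cyclic loess and 0.15 with median centring. Relative to the median of all genes, the members lay below it under every setting tried, by 0.06 to 0.19. A ratio above 0 was found for 46 members, where 59.9% of all genes had one, and 73 of the 80 lay within 0.20 of zero. None was 1.5-fold higher, where 5.87% of all genes were, and only Rpl3 was 1.5-fold lower, where 9.17% were. Beyond the 95% limit of the scanner error, 3 members were lower (Rpl3, Rpl4 and Rps6), where 12.3% of all genes were, and none was higher, where 11.5% were. No member reached 2-fold, where 1.37% of all genes were at least 2-fold higher and 4.86% lower.

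Rpl3, a large-subunit protein of the peptidyl transferase region, had relative signals of 16.1, 22.8 and 14.4 in the order nonswimming, swimming and swimming with Chlorella. It was highest with swimming alone, and its diet ratio was -0.66 ± 0.20. Rpl4 followed with -0.57 ± 0.20 and Rps6, the small-subunit protein phosphorylated by the S6 kinases, with -0.53 ± 0.20. Rps6 read 27.7, 28.9 and 20.1, so the normal food arrays were alike and the Chlorella array was low. Rpl13a, also known as a regulator of inflammatory messages when phosphorylated and released, read 28.9, 34.0 and 26.4, with a diet ratio of -0.36 ± 0.20. Rps9 read 26.1, 30.3 and 26.1, with -0.22 ± 0.20. These 5 ratios stayed negative under every setting. At the upper end, Rpl21 read 7.99, 8.73 and 10.9, with 0.32 ± 0.20, and was positive under every setting. The probe used for it is annotated to a predicted transcript. A dimmer Rpl21 probe, annotated to a RefSeq message, gave a diet ratio of 0.16 ± 0.21. Rplp1, Rps12, Rps18 and Rpl30 followed with 0.26, 0.19, 0.18 and 0.17 (each ± 0.20); the first 3 changed sign under at least 1 alternative, down to -0.05, -0.37 and -0.09.

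The Chlorella array against the nonswimming array shares both arrays with the comparisons above, so its values are given beside theirs and not as a separate check. The median was 0.25 (1.19-fold) against 0.04 over 15337 genes. A ratio above 0 was found for 66 of the 80, where 54.7% of all genes had one. At least 1.5-fold higher were 4 members (Rpl30, Rpl39, Rpl22l1 and Rps14), where 6.63% of all genes were, and 1 was lower (Rpl4), where 5.76% were. Rpl30 was the single member past 2-fold, at 1.02 ± 0.20, where 2.07% of all genes were at least 2-fold higher and 1.49% lower. Past the 95% limit of the scanner error, 14 members were higher and 3 lower, where 12% and 10.1% of all genes were. Rpl4 had -0.95 ± 0.20, Rps15 -0.58 ± 0.20 and Rps6 -0.46 ± 0.20. The nonswimming array was the lowest of the 3 in 63 of the 80 genes (78.8%), where 31.6% of 15270 genes had this order. The Chlorella array was the highest in 43 members, where 42.3% of all genes had it highest. The swimming array was the highest in 29 members, where 25.3% of all genes had it highest. These orders are for the scaling used, and that of the Chlorella and swimming arrays depended on it. The Chlorella array lay above the swimming array in 46 members under that scaling and in 70 with median centring. With quantile normalization or cyclic loess it did so in only 5 members.

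Paralogs can replace a core protein in the ribosome of some tissues, and 4 such pairs were measured among the members. The muscle form Rpl3l read 92.8, 77.7 and 85.5, with a swimming ratio of -0.26 ± 0.20 and a diet ratio of 0.14 ± 0.20, where Rpl3 had 0.50 ± 0.20 and -0.66 ± 0.20. The difference of the 2 ratios, Rpl3l minus Rpl3, was -0.76 ± 0.29 for swimming and 0.80 ± 0.29 for diet, with ranges of -0.76 to -0.73 and 0.75 to 0.81 over the alternative settings. Against the nonswimming array the Chlorella array showed no such gap (0.04 ± 0.29), so the pair separated on the swimming array with normal food. Each rests on 1 probe.

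Rpl22l1 read 31.8, 49.9 and 48.7 and had a swimming ratio of 0.65 ± 0.20, above Rpl22 at 0.31 ± 0.20. The difference of 0.34 ± 0.29 lay within the 95% limit of its error, but ran from 0.33 to 0.63 over the alternative settings, and the highest value passed that limit. The Rpl22 probes disagreed as described. Rps27l, a p53-inducible form of Rps27, read 44.8, 60.0 and 64.4, and Rps27 143, 204 and 188; their swimming ratios of 0.42 ± 0.20 and 0.51 ± 0.20 differed by less than the error. Rpl7l1, an assembly-linked relative of Rpl7, stayed flat at 2.62, 2.66 and 2.62, while Rpl7 read 110, 122 and 122. A second Rpl7l1 probe gave a swimming ratio of -0.50 ± 0.20.

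**Figure D4:**
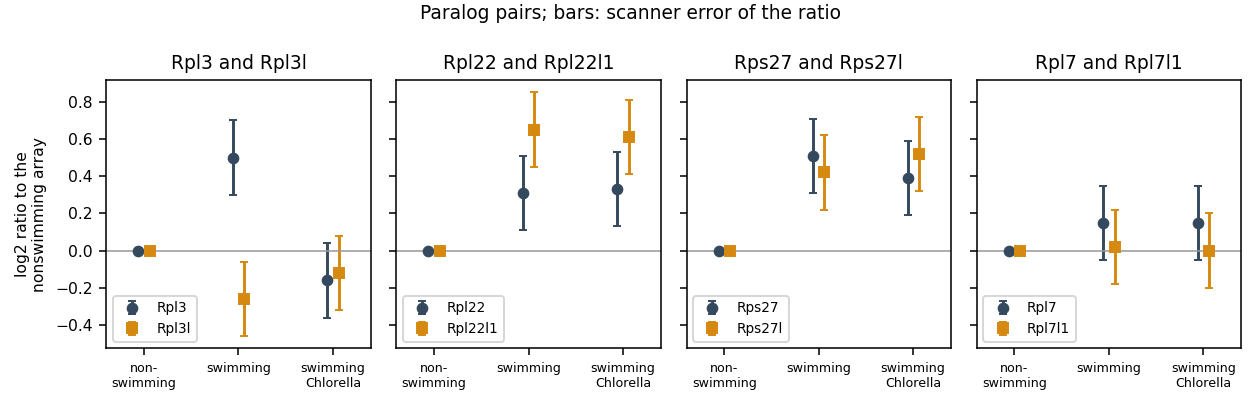
Log2 ratio to the nonswimming array for 4 core proteins (dark circles) and their paralogs (orange squares) on the 3 arrays; bars are the scanner error of the ratio. Rpl3 and Rpl3l part on the swimming array (0.50 and -0.26) and meet again on the Chlorella array (-0.16 and -0.12), while Rps27 and Rps27l stay together.

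The stalk that recruits elongation factors is built of Rplp0, Rplp1 and Rplp2. Rplp1 read 324, 344 and 410 and Rplp2 196, 225 and 248, lowest without swimming and highest with Chlorella under the scaling used. Their swimming ratios were 0.08 and 0.19 and their diet ratios 0.26 and 0.14 (each ± 0.20). Both diet ratios and the swimming ratio of Rplp1 became negative under some alternative settings, so this order depended on the processing. The probe named Rplp0, printed as 10 spots, read 26.7, 29.0 and 28.9, with a swimming ratio of 0.12 ± 0.20. The files list it on another chromosome than RefSeq's Rplp0, so which transcript it reads is in doubt. A pair of probes named by Rplp0's older symbol Arbp, outside the naming rule, gave swimming ratios of -0.07 ± 0.20 and -0.53 ± 0.20, so the probes under these names differed in sign. Rpl34, named in the files by a clone, also lay outside the rule and had 0.50 ± 0.20 and 0.33 ± 0.20 on its 2 probes.

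Of the proteins that bind the p53 regulator Mdm2 when assembly is disturbed, Rpl5 read 134, 154 and 164, Rpl11 165, 165 and 174, and Rpl23 71.1, 80.3 and 81.0. Their swimming ratios were 0.20, 0.00 and 0.18 (each ± 0.20), all within the scanner error. Rps19, the protein most often mutated in Diamond-Blackfan anaemia, read 55.3, 72.9 and 70.6, with a swimming ratio of 0.40 ± 0.20, and its other bright probe gave 0.63 ± 0.20. Rps3, at the entry of the message channel, read 118, 130 and 119, and Rps27a, made as a fusion with ubiquitin, 77.9, 88.2 and 89.1. Rpl10, which completes the large subunit at the last assembly step, read 53.6, 58.6 and 55.5, and Rps4x 122, 120 and 123. On their brightest probes, the ratios of Rps3, Rps27a, Rpl10 and Rps4x lay within the scanner error in all 3 comparisons. The other Rps3 probe gave 0.37 ± 0.20 for swimming and -0.32 ± 0.20 for diet, both beyond that error.

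Members with a C/T run of at least 8 bases near the annotated start had a median swimming ratio of 0.22 (28 genes), beside 0.20 in the 32 with a shorter run. In the diet comparison both medians were 0.00, and against the nonswimming array the Chlorella array gave 0.24 and 0.21.

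Other lists of the ribosome pathway had medians at or below 0.04 for swimming, apart from the few ribosomal proteins with other symbols. Over all genes the median was -0.04 and 44.9% were above 0. Among cytosolic ribosomal proteins whose symbols lie outside the rule, Fau, Rack1 and Rpl36al had swimming ratios of 0.34, 0.18 and 0.37 (each ± 0.20). Large-subunit assembly factors had a median of -0.13, with 1 of 21 above 0 and none 1.5-fold different. Small-subunit assembly factors had a median of -0.09 (8 of 25 above 0), with the processing factor Utp15 alone 1.5-fold higher, at 1.03 ± 0.22. RNA polymerase I and nucleolar genes had a median of -0.08 (7 of 22 above 0), with the rDNA transcription factor Ubtf at -0.49 ± 0.20.

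For swimming, 44.9% of all genes were above 0. Translation initiation factors had a median of -0.13 (10 of 33 above 0) and elongation and termination factors one of -0.07 (5 of 14). Among them Eef2, which moves the ribosome along the message, read -0.49 ± 0.20, and Eif3k, a subunit of the initiation factor eIF3, -0.69 ± 0.20, the 1 initiation factor past 1.5-fold. Other genes whose messages carry the pyrimidine tract had a median of 0.04 (11 of 20 above 0). The 78 mitochondrial ribosomal proteins, which serve the organelle's own ribosome, had a median of -0.03 (31 above 0), and ribosome rescue and quality control genes one of -0.10 (4 of 16 above 0), with 1 of 16 1.5-fold lower.

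In the diet comparison, medians of these lists ran from 0.03 for the other tract-bearing messages to 0.22 for rescue and quality control, against 0.08 for all genes. The mTORC1 and S6 kinase list had a median of 0.18 (19 of 21 above 0), where 59.9% of all genes were above 0. The list includes inhibitors of mTORC1, so its count gives no direction of signalling. Its Ddit4, a stress-induced inhibitor of mTORC1 also known as REDD1, read 37.0, 38.6 and 189, alike on both normal food arrays and higher with Chlorella, with a diet ratio of 2.30 ± 0.20. Sesn2, a leucine sensor that restrains mTORC1, read 0.819, 1.43 and 1.48, higher on both swimming arrays, with a swimming ratio of 0.80 ± 0.20. Larp1, which binds the tract, had a swimming ratio of -0.20 ± 0.20 and a diet ratio of 0.54 ± 0.20. Eef1a1, an elongation factor whose message carries the tract, had a diet ratio of -0.51 ± 0.20, and Gnl3, the nucleolar protein nucleostemin, one of -0.79 ± 0.20.

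**Figure D5:**
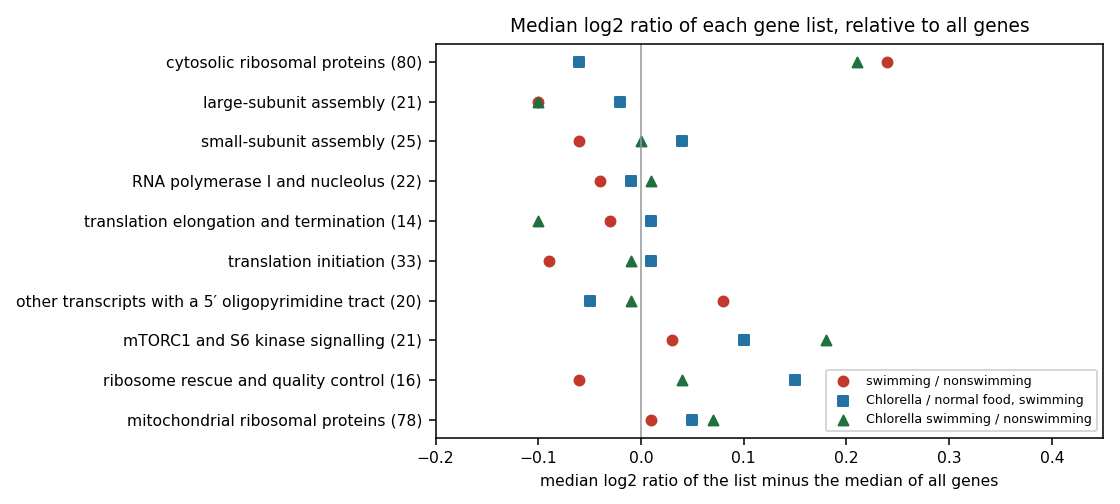
Median log2 ratio of each gene list minus the median of all genes (number of genes in brackets) for the 3 comparisons. The ribosomal proteins lie at 0.24 and 0.21 in the comparisons with the nonswimming array, and the other 9 lists drawn lie between -0.10 and 0.18 over all 3 comparisons. The few ribosomal proteins with other symbols are not drawn.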

How the data were processed

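Per the labels' protocols, 500 ng of each muscle RNA pool carried the dye Cy3 on its own single-colour array. Per the submitters' processing notes, spots were read with Agilent Feature Extraction 9.5. The authors deposited 1 scanner file per array with processed signal intensity, and a value table on a log2 scale; per the file headers, the 3 arrays shared 1 slide and 1 scan. The scale, centring and direction of that table were not stated, and its column medians were 0.0076, -0.00524 and 0.0103; its differences correlated with those of the scanner files at r = 0.77, 0.82 and 0.71 across probes.

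Log2 processed signals minus each array's 75th percentile (285.9, 295.0 and 237.8) were used. A gene is its brightest probe, counted where well above background on both arrays. On the single arrays, 23842 (nonswimming), 24857 (swimming) and 23448 (Chlorella) probes were well above background. Alternatives: quantile and cyclic loess normalization, median centring, the percentile over detected probes, normexp (limma 3.58.1), other filters, the mean over probes and the authors' table. Genes were named by fixed role and as the 5 highest, 5 lowest and all past 1.5-fold. The members and lists were chosen with earlier results of these data known. A comparison of paralog proteins was not made here. The calculation was tested on simulated data. The values of 1 gene of the lists are not reported here.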

Additional observations from a re-analysis of the deposited data

How the results depend on the processing

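With 1 array per group, no replicate could be left out. The scanner error and the spread between repeated spots are the only errors available. No paired analysis was possible because each group has 1 pool. The members' median relative to all genes kept its direction under every other scaling, filter and probe rule tried, at 0.24 to 0.34 for swimming, -0.19 to -0.06 for diet and 0.12 to 0.22 for Chlorella against nonswimming. It moved to 0.34 and -0.18 for swimming and diet with no filter on dim probes, to -0.19 and 0.12 for diet and Chlorella against nonswimming with quantile normalization, and to 0.12 for the last with normexp. Against genes as bright as the members, chosen after seeing the data, it was 0.27, -0.18 and 0.10; the cause of these moves was not tested.

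The counts past 1.5-fold were small and moved. For swimming, 5 were higher in place of 3 with quantile or cyclic loess scaling and with the 75th percentile over detected probes, and 1 was lower with the mean over probes and 2 in the authors' table, in place of 0. For diet, 3 were lower in place of 1 in the authors' table and with quantile or cyclic loess scaling, 2 with the detected-probe percentile and normexp, and 0 with median centring. For Chlorella against nonswimming, 2 were higher in place of 4 with quantile normalization. There 2 were lower in place of 1 with quantile or cyclic loess scaling, median centring, the detected-probe percentile, normexp and the mean over probes, and 4 in the authors' table. Median centring lowered every swimming ratio, leaving 54 of 80 above 0. In the diet comparison 5 were above 0 with quantile normalization or cyclic loess and 70 with median centring. That scaling took the all-gene median from -0.04 to -0.19 for swimming and from 0.08 to 0.21 for diet. It also turned the all-gene split past 2-fold from 805 higher and 167 lower to 672 and 276 for swimming, and from 212 and 754 to 310 and 636 for diet. Those counts ran from 275 (stricter filter) to 2104 (no filter) higher for swimming.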
